A study of Mus musculus with 2 samples.

Results

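The small leucine-rich proteoglycans are secreted matrix proteins built from leucine-rich repeats, most of which carry chondroitin, dermatan or keratan sulfate chains. The 8 genes described here were taken by symbol from the gene table of each library: Dcn (decorin), Bgn (biglycan), Aspn (asporin), Lum (lumican), Fmod (fibromodulin), Prelp, Omd (osteomodulin) and Ogn (osteoglycin). They are 8 of the 31053 genes counted. Cells came from C57BL/6 dental pulp taken on postnatal day 12, were dissociated with collagenase, dispase and DNase, and were sorted as negative for propidium iodide, a stain for dead cells. One 10x Chromium 3' library was made from control mice and 1 from mice labelled as an endothelial knockout of Vegfr2, the receptor tyrosine kinase encoded by Kdr. The labels give neither the Cre driver, nor the genotype of the control mice beyond that word, nor how many animals were pooled in a library.

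Small leucine-rich proteoglycans bind collagen fibrils and set how these grow and fuse, and they also bind growth factors of the TGF-beta and BMP families. Class I holds Dcn, Bgn and Aspn, class II holds Lum, Fmod, Prelp and Omd, and class III holds Ogn. In teeth, decorin, biglycan and osteomodulin are known from dentine and its unmineralised front, and the pulp is a loose collagenous tissue in which fibroblast-like cells are the main source of matrix. Decorin is also known to bind several receptor tyrosine kinases, VEGFR2 among them.

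After filters on genes, UMIs (unique molecular identifiers, each counting 1 captured transcript) and mitochondrial share, 2311 control and 1668 knockout cells remained, with 31500719 and 14852060 UMIs. Median depth was 12203 UMIs per control cell and 8273 per knockout cell, and 2 kept barcodes occurred in both libraries. Among cells assigned by Xist or 4 Y-linked genes, 16.1% of control and 34.0% of knockout cells were Y-positive, so the sexes were not mixed alike. The 24 clusters, made with the 8 genes and the rest of their family left out of the variable genes, were all named from marker lists: 4 were mesenchyme-like (574 control and 359 knockout cells), 3 mural-like (294 and 169), 5 glia-like (453 and 386) and 3 endothelial-like (388 and 137), and the others were haematopoietic. The marker lists that named the classes held none of the 8 genes. The odontoblast list summed to only 161 CPM in control and 135 CPM in knockout mesenchyme-like cells, and Dmp1 was at 0 in knockout. Kdr in endothelial-like cells was 1089.9 CPM in control and 649.8 CPM in knockout (UMIs of the gene per 1000000 UMIs of those cells). These 3' tags do not show whether the deleted part of the gene was present, so they do not check the deletion.

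With 1 library per genotype there was no replicate error and no test of genotype. Ratios are knockout over control, with exact 95% intervals that cover counting error only. A gene was called higher or lower where it had at least 30 UMIs over both libraries, differed by at least 1.5-fold and had an interval that excluded 1. Each call describes these 2 libraries. Levels in CPM are compared between cells for 1 gene and not between genes.

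In mesenchyme-like cells, 1 of the 8 members was called higher in knockout (Dcn) and 3 were called lower (Omd, Ogn and Aspn). Over the 11929 genes measured there, 8.84% were called higher and 9.49% lower, or 18.3% in either direction. The 3 members called lower lie side by side on chromosome 13. In mouse build GRCm38 (GENCODE M21), Aspn spans positions 49544443 to 49567565, Omd 49582462 to 49592822 and Ogn 49608046 to 49624501, all on the plus strand, with 14.9 kb between Aspn and Omd and 15.2 kb between Omd and Ogn. Ecm2, another leucine-rich repeat gene, lies 11.7 kb from Aspn. All of these genes lie inside Cenpp, a centromere protein gene on the minus strand that spans 49464023 to 49652785. In mesenchyme-like cells, Cenpp itself had 99 UMIs in control (13.004 CPM) and 16 UMIs in knockout (5.3979 CPM). No source used here says whether reads were counted by strand. The other members form pairs or stand alone: Dcn and Lum lie 47.0 kb apart on chromosome 10, Prelp and Fmod 115.8 kb apart on chromosome 1, and Bgn is on the X chromosome.

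The sequences before the starts of these 3 neighbours are shown because their sums over all mesenchyme-like cells were called lower. Within single clusters only Omd and Ogn were called lower, and Aspn was called higher in 1. RefSeq windows on GRCm38.p6 were found for 6 of the 8 members, and the 250 bases before each RefSeq start, plus strand, are chr13:49582212-49582461 for Omd, chr13:49607765-49608014 for Ogn and chr13:49544193-49544442 for Aspn. Capitals mark the longest run that the Omd and Ogn windows share and, in Aspn, the letters TATAAA on either strand.
Omd: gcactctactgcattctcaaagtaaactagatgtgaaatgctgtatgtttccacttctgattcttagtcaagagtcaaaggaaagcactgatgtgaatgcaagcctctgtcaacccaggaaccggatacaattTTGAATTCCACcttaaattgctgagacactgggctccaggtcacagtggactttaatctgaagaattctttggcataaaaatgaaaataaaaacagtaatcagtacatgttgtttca
Ogn: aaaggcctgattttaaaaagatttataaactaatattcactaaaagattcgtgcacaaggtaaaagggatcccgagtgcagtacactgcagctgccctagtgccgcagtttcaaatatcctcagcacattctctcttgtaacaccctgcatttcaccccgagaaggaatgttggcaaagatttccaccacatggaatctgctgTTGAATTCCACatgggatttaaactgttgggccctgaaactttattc
Aspn: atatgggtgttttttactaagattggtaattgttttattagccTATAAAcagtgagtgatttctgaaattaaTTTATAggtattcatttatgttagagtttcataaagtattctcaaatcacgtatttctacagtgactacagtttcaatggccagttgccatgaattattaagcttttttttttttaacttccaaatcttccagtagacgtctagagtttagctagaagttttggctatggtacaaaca
The shared run TTGAATTCCAC has 11 bases and begins 117 bases before the Omd start and 47 bases before the Ogn start. The RefSeq window of Ogn ends at 49608014, whereas its GENCODE start is 49608046. The first bases after that window were not found in a GENCODE transcript of Ogn. The run occurred in 3 of 32536 promoter windows of this length (0.00922%), read on the strand of the gene. These 3 include the Omd and Ogn windows themselves, and the run was picked as the longest of that pair. Its rarity is therefore no test. Of the 15 pairs of windows, Bgn and Prelp shared a run of 12 bases and Fmod and Prelp another of 11. Those runs occurred in 56 and 72 windows, their own included. These are matches of letters and not known sites.

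Searched on both strands, TATAAA was found in 2 of the 6 windows (Aspn and Ogn) and in 12.3% of all windows. The RUNX motif letters TGTGGT (14.0% of all windows) and the TEAD motif letters GGAATG (12.6%) were each found in Ogn only among the members. GGGCGG (33.0%) was found in Bgn only, and TGANTCA (6.73%), the AP-1 letters, in 0 of the 6.

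**Figure D1:**
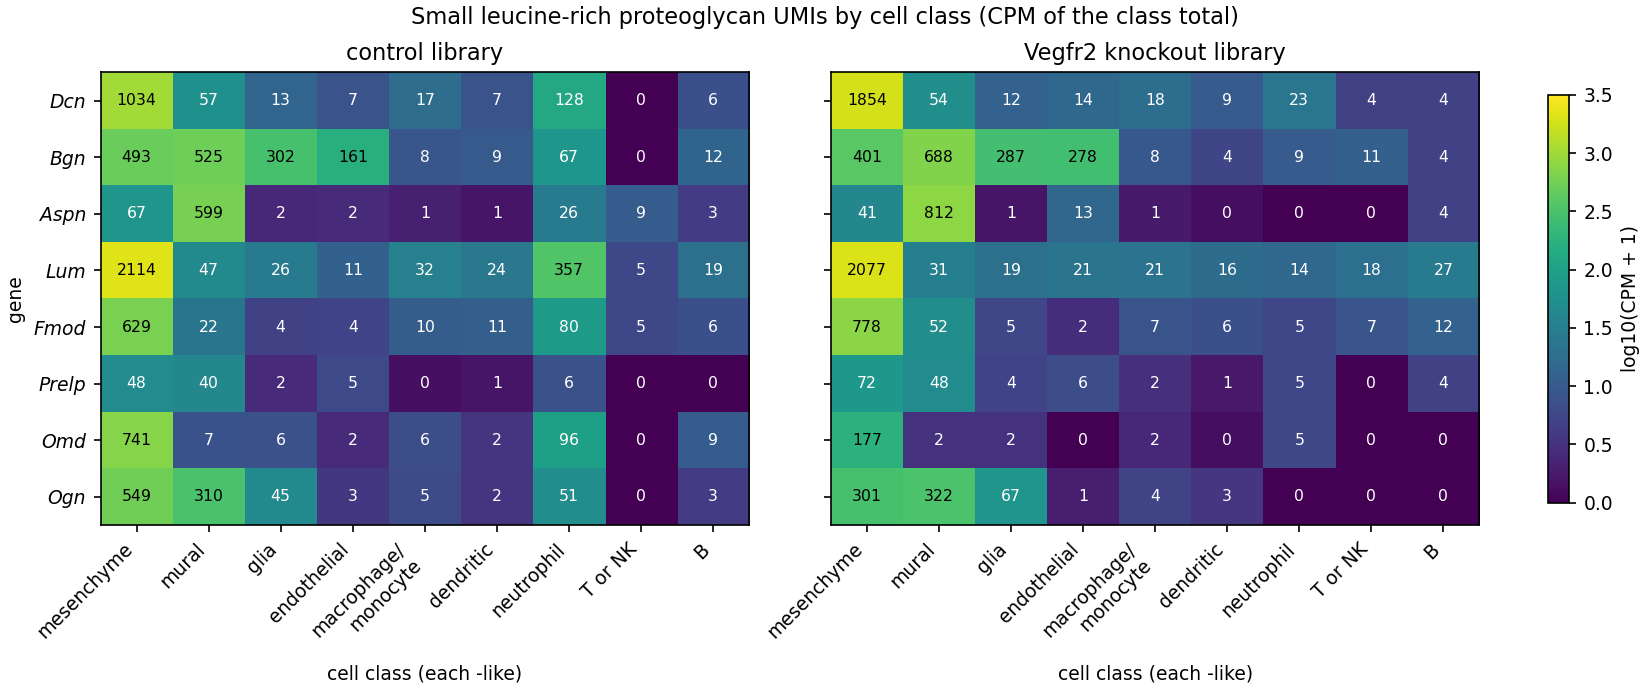
UMIs of each gene (rows) per 1000000 UMIs of each cell class (columns) in the control library (left) and the Vegfr2 knockout library (right), printed as CPM and coloured on a log10(CPM + 1) scale. Dcn, Lum, Fmod and Omd were concentrated in mesenchyme-like cells, Aspn in mural-like cells, and Bgn was spread over 4 classes.

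The 8 genes fell into 3 patterns of cell class, shown in the map of levels by class. Mesenchyme-like cells held 94.2% of all Dcn UMIs in control and 96.4% in knockout, 95.5% and 96.2% of Lum, 95.2% and 94.8% of Fmod, and 97.5% and 96.9% of Omd. Aspn was mainly mural, with 81.3% of its UMIs in mural-like cells in control and 88.3% in knockout. Bgn, Ogn and Prelp were shared among classes. Bgn, for instance, had 44.2% of its control UMIs in mesenchyme-like, 24.3% in mural-like, 21.3% in glia-like and 9.16% in endothelial-like cells.

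Across the 24 clusters with libraries pooled, the log2(CPM + 1) levels of Dcn and Lum correlated at Pearson r = 0.96 and those of Lum and Omd at 0.94, whereas Aspn reached at most 0.63, with Ogn, and Bgn at most 0.59, with Prelp. These are descriptions over clusters that share libraries. By the same measure, the genes most like Dcn were Clec11a (0.97), Lum and Arfgef3 (0.96), and those most like Lum were Clec11a and Sox9, both at 0.97, and Dcn. Omd was most like Tenm4 (0.96), Wif1, an inhibitor of Wnt ligands (0.95), and Olfml1 (0.95). The genes most like Fmod were Msx2 (0.95), a homeobox gene of tooth mesenchyme, Fat3 (0.94) and Edn3 (0.93). Aspn was most like Gucy1a2, a subunit of the nitric oxide receptor of contractile cells (0.94), Slc6a17 (0.94) and Bmp5 (0.93). Bgn was most like the collagen chaperone Serpinh1 (0.96), B9d1 (0.96) and Fkbp9 (0.95). The nearest genes were less close for Ogn (Dkk3 at 0.93, Cpne5 at 0.90 and Msi1 at 0.89) and for Prelp (Parm1 at 0.88, with Tgfb3 and Abi3bp at 0.86).

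Haematopoietic-like cells, which are not known to make these proteoglycans, gave the floor that free RNA can reach. They had 16.3 and 12.7 CPM of Dcn in control and knockout, 39.3 and 18.7 CPM of Lum, 7.67 and 0.991 CPM of Omd, and at most 12.2 CPM of any other member. In control neutrophil-like cells, Lum reached 357 CPM, but 5 of 36 cells held 92.9% of those UMIs. In haematopoietic-like cells 0 members were called higher and 5 lower (Omd, Lum, Ogn, Fmod and Bgn), against 14.5% of genes in either direction. Aspn and Prelp had too few UMIs for a call. The 36 control neutrophil-like cells held 112 of 359 control Lum UMIs, 30 of 70 of Omd and 25 of 111 of Fmod. In macrophage or monocyte-like cells alone, Omd (0.267) and Lum (0.645) were called lower. Ogn (0.788), Fmod (0.726) and Bgn (1.07) were not called there. Values near the levels of haematopoietic-like cells are read as background below.

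Omd differed most between the libraries. Osteomodulin is a keratan sulfate proteoglycan that binds collagen and is known from mineralising tissue. Mesenchyme-like cells had 5640 Omd UMIs in control (741 CPM, interval 722 to 760.4) and 524 in knockout (177 CPM, 162 to 193). The knockout level was 4.19-fold lower, a ratio of 0.239 (0.218 to 0.261). Per cell, the median was 2.87 Omd UMIs per 10000 in control, with quartiles of 0.087 and 9.43, and 0.721 in knockout, with quartiles of 0 and 2.37. After each cell was thinned to 2000 UMIs, 49.2% of control cells and 20.4% of knockout cells had an Omd UMI. Unthinned, the shares were 74.9% and 51.0%. In haematopoietic-like cells the thinned shares were 1.03% and 0.687%, at unthinned median depths of 15092 and 9058 UMIs. The Omd ratio there, at background level, was 0.129 (0.0459 to 0.296).

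The summed Omd level was called lower in each of the 4 mesenchyme-like clusters. Cluster 6, led by Angpt4, Col9a1 and Col9a3, had 944 CPM in control and 273 CPM in knockout, a ratio of 0.289. Cluster 8, led by Gpx3, Cldn10 and Pamr1, had 217 and 98.7 CPM, a ratio of 0.455. In cluster 13, led by Pcp4, Smoc2 and Gpha2 and highest in the apical and follicle marker list, Omd was highest, with 1237 and 679 CPM and a ratio of 0.549. Cluster 9, led by Gm42743 and Caprin2, had 265 and 146 CPM, a ratio of 0.551. In control the order of clusters was 13, 6, then 9 and 8, the last pair having overlapping intervals.

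The share of cells with Omd did not follow the summed level in every cluster. After thinning, 67.4% of control and 28.6% of knockout cells had an Omd UMI in cluster 6, and 28.9% and 11.7% in cluster 8. In cluster 9 the shares were 19.0% and 20.7%, and in cluster 13 they were 78.3% and 70.0%, with overlapping intervals in both. Cells under the thinning depth were left out of these shares. In cluster 13 the knockout median depth was 1611 UMIs, below that depth, so most of its knockout cells were left out. Over all cells of cluster 13, the per-cell Omd median was 12.417 UMIs per 10000 in control and 6.4226 in knockout. Few cells carried the sums in clusters 9 and 13. In cluster 9, 5 of the 27 control cells held 83.7% of Omd UMIs, and in cluster 13, 5 of the 23 knockout cells held 78.2%. In cluster 6, 5 cells held 13.3% in control and 54.9% in knockout.

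The 2 libraries filled these clusters unevenly. Control mesenchyme-like cells numbered 159, 265, 27 and 123 in clusters 6, 8, 9 and 13, and knockout cells 53, 103, 180 and 23. Of the UMIs of these cells, cluster 13 held 2255134 of 7612966 in control and 128132 of 2964143 in knockout. Weighting the knockout clusters by the control shares of UMIs gave an Omd ratio of 0.438. Without cluster 9, which was 180 knockout to 27 control cells, the ratio was 0.278 (0.246 to 0.312), and without cluster 13, whose knockout cells had a median of only 1611 UMIs, it was 0.290 (0.261 to 0.320). It was 0.222 in Xist-positive and 0.327 in Y-positive cells. Of the sex-assigned knockout cells, 6.94% were Y-positive in cluster 9, against 38.1% in clusters 6 and 8 each and 23.5% in cluster 13. The share of each cluster and the sex mix thus went together in the knockout, and their separate parts were not tested. Omd was called lower under all 19 alternative settings tried for this class, where settings without an interval were called by fold and UMI number alone.

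Transcripts induced by dissociation also moved with the comparison. The 12 genes of that list summed to 3593 CPM in control and 5409 CPM in knockout mesenchyme-like cells, and 7 of them were called higher. By cluster, the sums were 2839 and 3046 CPM in cluster 6, 6040 and 4011 in cluster 8, 9235 and 7316 in cluster 9, and 794 and 851 in cluster 13. Median depth was 12214 and 7924 UMIs per mesenchyme-like cell. The apical and follicle list summed to 913 and 435 CPM over the class, and lists of other cell types to 124 and 219 CPM (10 glia genes), 228 and 304 CPM (10 mural genes) and 204 and 99.2 CPM (8 epithelial genes, Krt5 at 0 in both). The part of these lists and of dissociation genes in the result was not tested.

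Ogn, which encodes osteoglycin (mimecan), a class III member found in many connective tissues, was also lower in knockout mesenchyme-like cells, at 549 CPM in control and 301 CPM in knockout, a ratio of 0.548 (0.509 to 0.589). The thinned share of cells with an Ogn UMI was 51.4% in control and 41.0% in knockout. The ratios varied over clusters, which was not tested. Cluster 13 had 549 and 164 CPM, a ratio of 0.298, and cluster 6 had 581 and 195 CPM, a ratio of 0.336. Clusters 8 and 9 had ratios of 0.769 and 0.836, short of the 1.5-fold limit, and the interval of cluster 9 included 1 (0.641 to 1.11). In Y-positive cells alone the ratio was 0.849 (0.724 to 0.995), which is no call, against 0.482 in Xist-positive cells.

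Aspn, a class I member that binds collagen and TGF-beta and is best known from cartilage and periodontal ligament, was called lower in mesenchyme-like cells as a whole, at 66.6 CPM in control and 40.8 CPM in knockout (ratio 0.613, 0.498 to 0.749). No single cluster was called lower. Cluster 6 had a ratio of 0.754, cluster 13 of 1.00 and cluster 9 of 1.55, and cluster 8 was called higher at 2.68 (1.58 to 4.52), from 36 and 28 UMIs. Cluster 13 held 316 of the 507 control UMIs and made up 123 of 574 control but 23 of 359 knockout cells. Without it the Aspn ratio was 1.02, with knockout clusters at control shares it was 1.05, and in Y-positive cells it was 2.11. The thinned shares of cells with an Aspn UMI, 6.31% and 6.99%, had overlapping intervals.

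By cluster, 2 members were called in cluster 6 (background 9.65% of genes), 3 in cluster 8 (10.2%), 3 in cluster 9 (9.96%) and 2 in cluster 13 (6.75%). Over the whole class, the median log2 ratio of the 8 was -0.16, and that of all genes measured was -0.05.

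**Figure D2:**
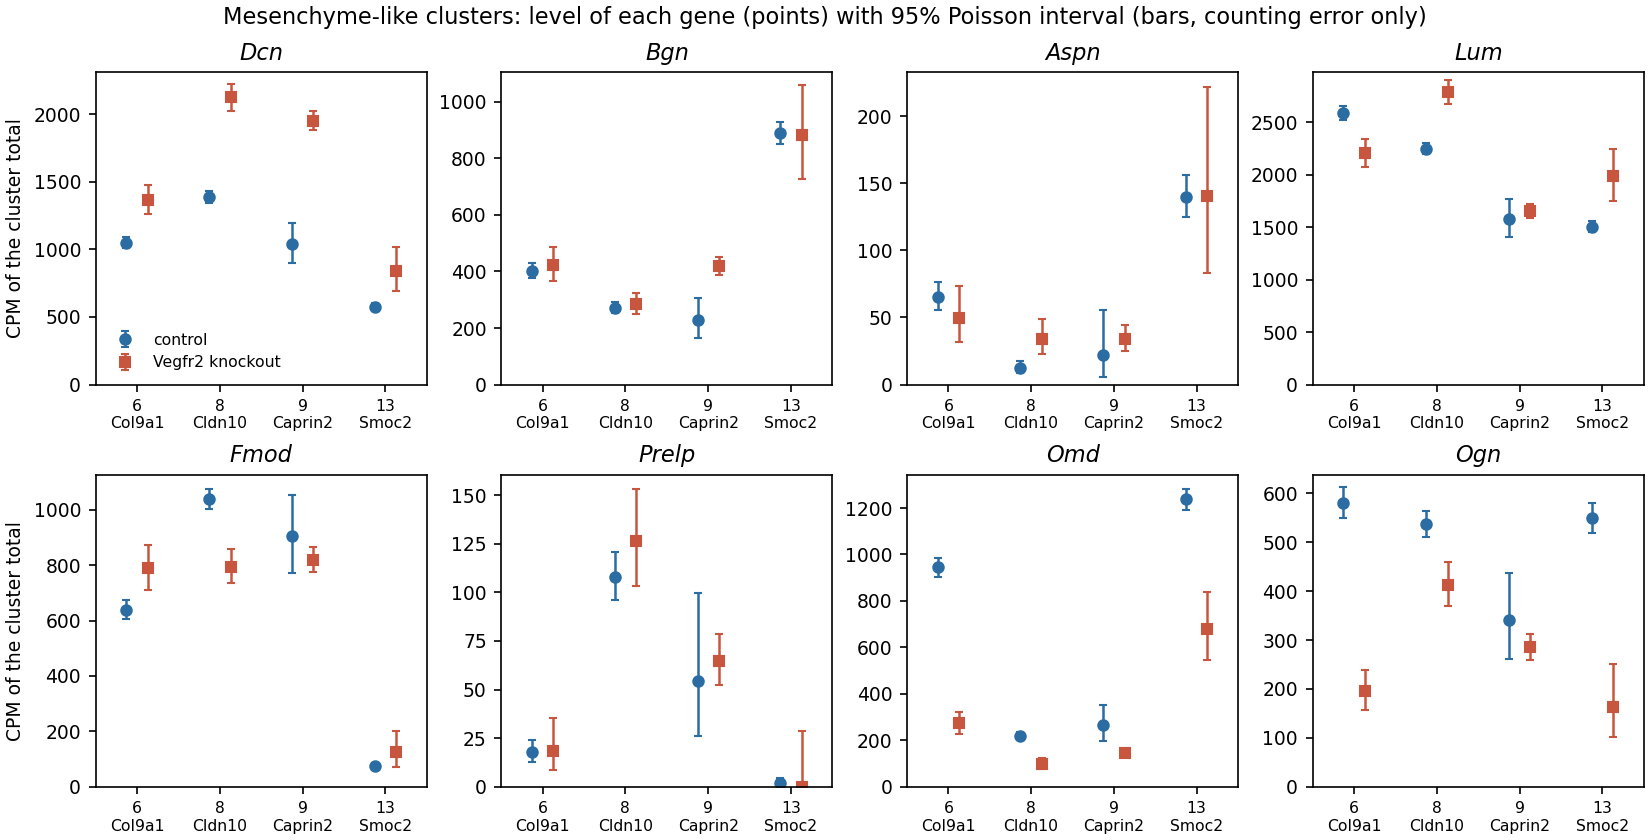
Level of each gene (CPM of the cluster's UMIs, vertical axis from 0) in the 4 mesenchyme-like clusters (horizontal axis, each with 1 of its leading genes), for the control (circles) and Vegfr2 knockout (squares) libraries, with 95% Poisson intervals that cover counting error only. The Omd level was called lower in all 4 clusters, Ogn lower in clusters 6 and 13, and Dcn higher in clusters 8 and 9.

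Dcn was the member called higher. Decorin carries a single chondroitin or dermatan sulfate chain and limits the width of collagen fibrils. Mesenchyme-like cells had 7875 Dcn UMIs in control (1034 CPM) and 5496 in knockout (1854 CPM), a ratio of 1.79 (1.73 to 1.86). The per-cell median was 8.35 UMIs per 10000 in control and 15.5 in knockout, and the thinned share of cells with a Dcn UMI was 70.1% and 89.1%. All 4 clusters had ratios above 1: cluster 6 of 1.30, cluster 13 of 1.47, cluster 8 of 1.53 and cluster 9 of 1.88, of which the last pair passed the 1.5-fold limit. At control shares of the clusters the ratio was 1.46, just under the limit. By summed level, Dcn and Omd thus differed in opposite directions in all 4 clusters. In cluster 9, however, the per-cell Omd median was 0 in control and 0.331 UMIs per 10000 in knockout. The Omd sums there do not describe the typical cell.

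**Figure D3:**
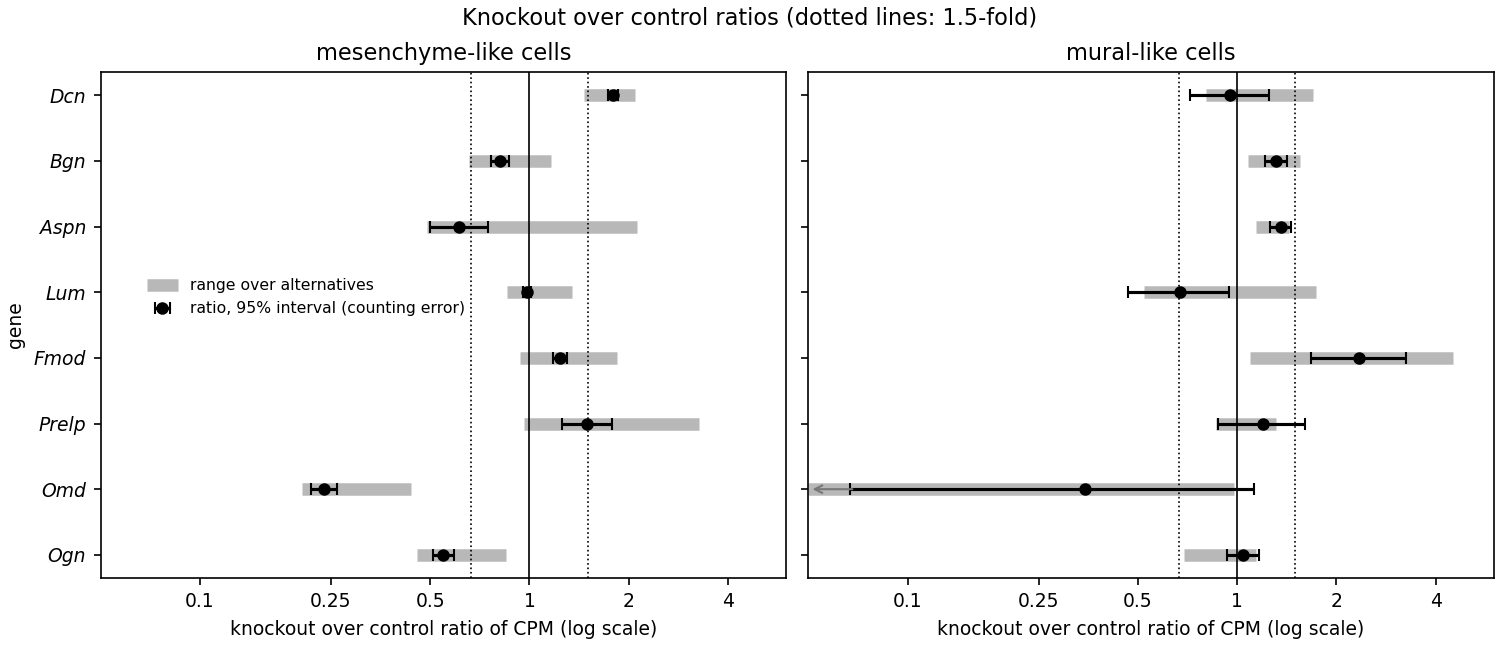
Knockout over control ratio of CPM (horizontal axis, log scale) for each gene in mesenchyme-like cells (left) and mural-like cells (right). Points and black lines give the ratio with its exact 95% interval (counting error only), grey bars the range over the alternative settings, and dotted lines the 1.5-fold limits; the arrow marks a range that reaches 0. In mesenchyme-like cells the whole range of Omd and Ogn lies below 1 and that of Dcn above 1, whereas the Aspn range spans 1.

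The other members differed less in mesenchyme-like cells. Lum, which encodes lumican, a keratan sulfate proteoglycan of the fibril surface, had 2114 CPM in control and 2077 in knockout (ratio 0.982, 0.954 to 1.01), with cluster ratios from 0.852 to 1.32. Fmod, whose product shares lumican's binding site on collagen, had 629 and 778 CPM (1.24, 1.18 to 1.30), with cluster ratios from 0.765 to 1.67. It was low in cluster 13, at 74.9 and 125 CPM, and without that cluster its ratio was 0.936. Bgn, whose product is decorin's closest relative and also signals through Toll-like receptors, had 493 and 401 CPM (0.814, 0.762 to 0.869). Clusters 6, 8 and 13 had Bgn ratios of 1.05, 1.05 and 0.990, and cluster 9 was called higher, at 227 and 418 CPM (1.84, 1.35 to 2.58). Bgn was highest in cluster 13, at 891 and 882 CPM, and without that cluster the class ratio was 1.17. Bgn is X-linked and the libraries differed in their share of Y-positive cells, and its ratio was 0.810 in Xist-positive and 0.784 in Y-positive mesenchyme-like cells.

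Prelp, whose product anchors basement membranes to collagen, was just under the limit, at 47.8 and 71.5 CPM (1.496, 1.26 to 1.78), and was called higher under 6 of 19 alternatives. It was highest in cluster 8 (108 and 126 CPM, ratio 1.17). Cluster 13 had 4 control UMIs and 0 knockout UMIs, which allows up to 23.4 CPM there. Its ratios in the 3 clusters with enough UMIs lay between 1.04 and 1.19.

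**Figure D4:**
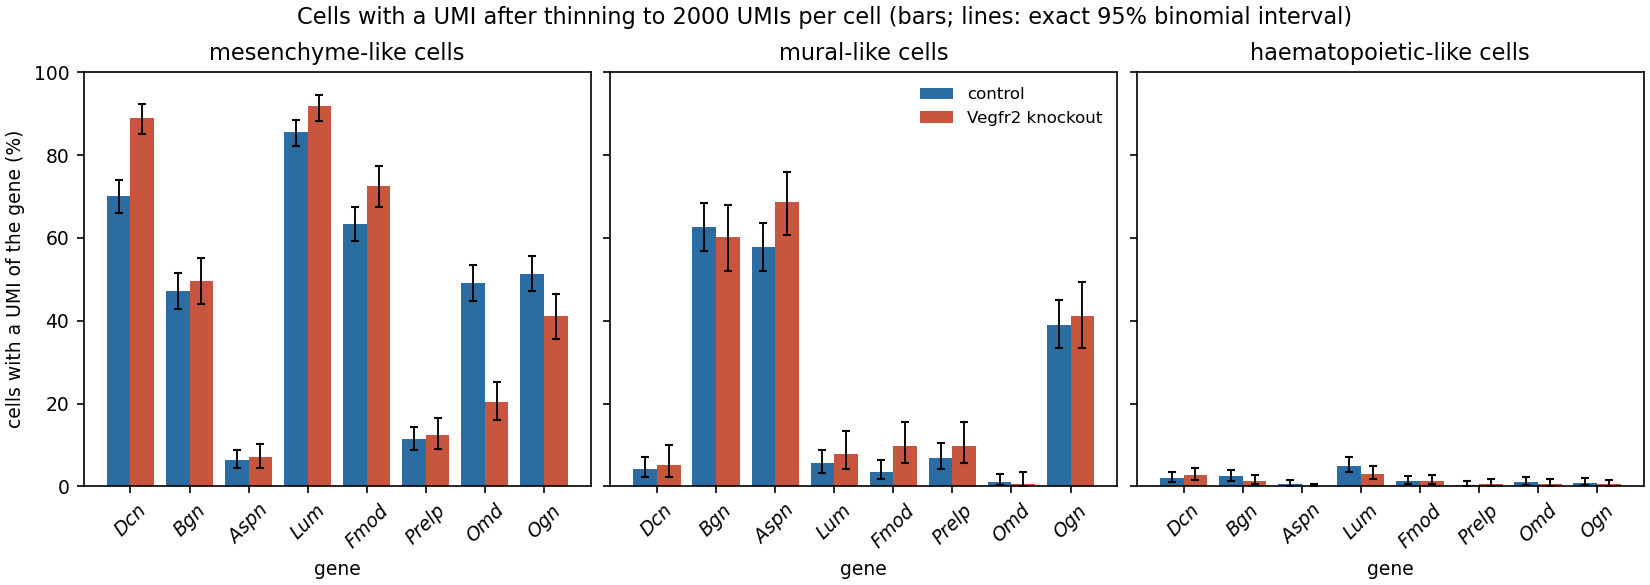
Percent of cells with at least 1 UMI of each gene (vertical axis) after thinning each cell to 2000 UMIs, in mesenchyme-like, mural-like and haematopoietic-like cells of the control and Vegfr2 knockout libraries; lines are exact 95% binomial intervals over cells. Among mesenchyme-like cells the Omd bars stand at 49.2% and 20.4% and the Dcn bars at 70.1% and 89.1%, and in haematopoietic-like cells each bar is under 5%.

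The number of members seen per cell was close in the libraries. At 2000 UMIs per cell, mesenchyme-like cells had a median of 4 of the 8 genes in both libraries (539 control and 329 knockout cells deep enough, with 35 and 30 left out), and 62.0% and 64.7% had at least 4. Of control cells with a Dcn UMI 48.9% also had an Omd UMI, against 49.2% of all control cells. In knockout the same shares were 18.8% and 20.4%. Cells with Ogn had Omd in 51.6% of control and 25.9% of knockout cells. These shares are descriptions of sparse counts.

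Mural-like cells (pericytes and vascular smooth muscle) carried Aspn, Bgn, Ogn and Prelp. Aspn had 599 CPM in control and 812 CPM in knockout (ratio 1.35, 1.26 to 1.46), Bgn 525 and 688 CPM (1.31, 1.21 to 1.42) and Ogn 310.3 and 322 CPM (1.04, 0.928 to 1.16). None of Aspn, Bgn and Ogn reached the 1.5-fold limit in the class, although Bgn did in Xist-positive cells alone (1.55), against 1.15 in Y-positive cells. Fmod was the 1 member of 7 measured that was called higher, at 22.1 and 51.8 CPM (2.34, 1.68 to 3.25), and 0 were called lower, against 17.1% of 10355 genes called in either direction (7.48% higher and 9.66% lower). The Fmod ratio was 1.09 when mural cells were taken by marker gates per cell instead of clusters, and 1.22 in Xist-positive cells, neither of which is a call. Lum sat at the limit (0.671, 0.466 to 0.946), at 46.6 and 31.2 CPM. Its level is close to that of haematopoietic-like cells, and 5 cells held 71.0% of its UMIs in control and 48.8% in knockout. Dcn, at 56.8 and 54.1 CPM (0.953), likewise had 79.8% and 77.5% of its mural UMIs in 5 cells, and with marker gates its ratio was 1.70 and called higher. Of the 489 control and 300 knockout cells that passed the mural gate, 243 and 155 lay in mural-like clusters. Prelp had 40.2 and 48.0 CPM (1.19, 0.877 to 1.61) and was not called. In haematopoietic-like cells it had 0.657 and 1.49 CPM. Omd was at background, with 26 and 3 UMIs.

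Members were called in cluster 1, led by Spp1, Mgp and Steap4 with the pericyte genes Higd1b and Kcnj8 (88 control and 44 knockout cells). There Aspn had 862 and 1298 CPM (1.51, 1.34 to 1.70), Bgn 585 and 922 CPM (1.58, 1.37 to 1.82) and Fmod 26.7 and 102 CPM (3.83, 2.198 to 6.78), all called higher. Ogn had 309 and 184 CPM (0.596, 0.445 to 0.787) and Lum 173 and 70.0 CPM (0.405, 0.252 to 0.626), both called lower, against 17.8% of genes called in this cluster. Fmod rested on 23 and 35 UMIs, and 5 cells held 60.9% and 74.3% of them. The per-cell upper quartile of Lum was 0 in both libraries, and the highest control value was 47.0 UMIs per 10000.

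In cluster 2, led by Myh11 and Acta2 (176 and 119 cells), 0 of the 6 members with at least 30 UMIs were called (background 12.4%). Aspn had 647 and 665 CPM there (1.03), Bgn 579 and 610.5 (1.05), Ogn 395 and 387 (0.980) and Prelp 55.5 and 54.8 (0.988). Cluster 19, of cycling cells, had 30 and 6 cells, too few for a call, and Bgn was 247 and 490 CPM there (1.98, 1.16 to 3.20). Whether these clusters differ in their ratios was not tested. Other markers also differed in cluster 1: the 7 smooth muscle genes summed to 506 CPM in control and 5779 in knockout, and the 12 dissociation genes to 3612 and 10062 CPM, whereas in cluster 2 the smooth muscle genes summed to 9257 and 9299 and the dissociation genes to 3413 and 6852. All 12 dissociation genes were called higher in mural-like cells. The part of these in the cluster 1 values was not tested.

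**Figure D5:**
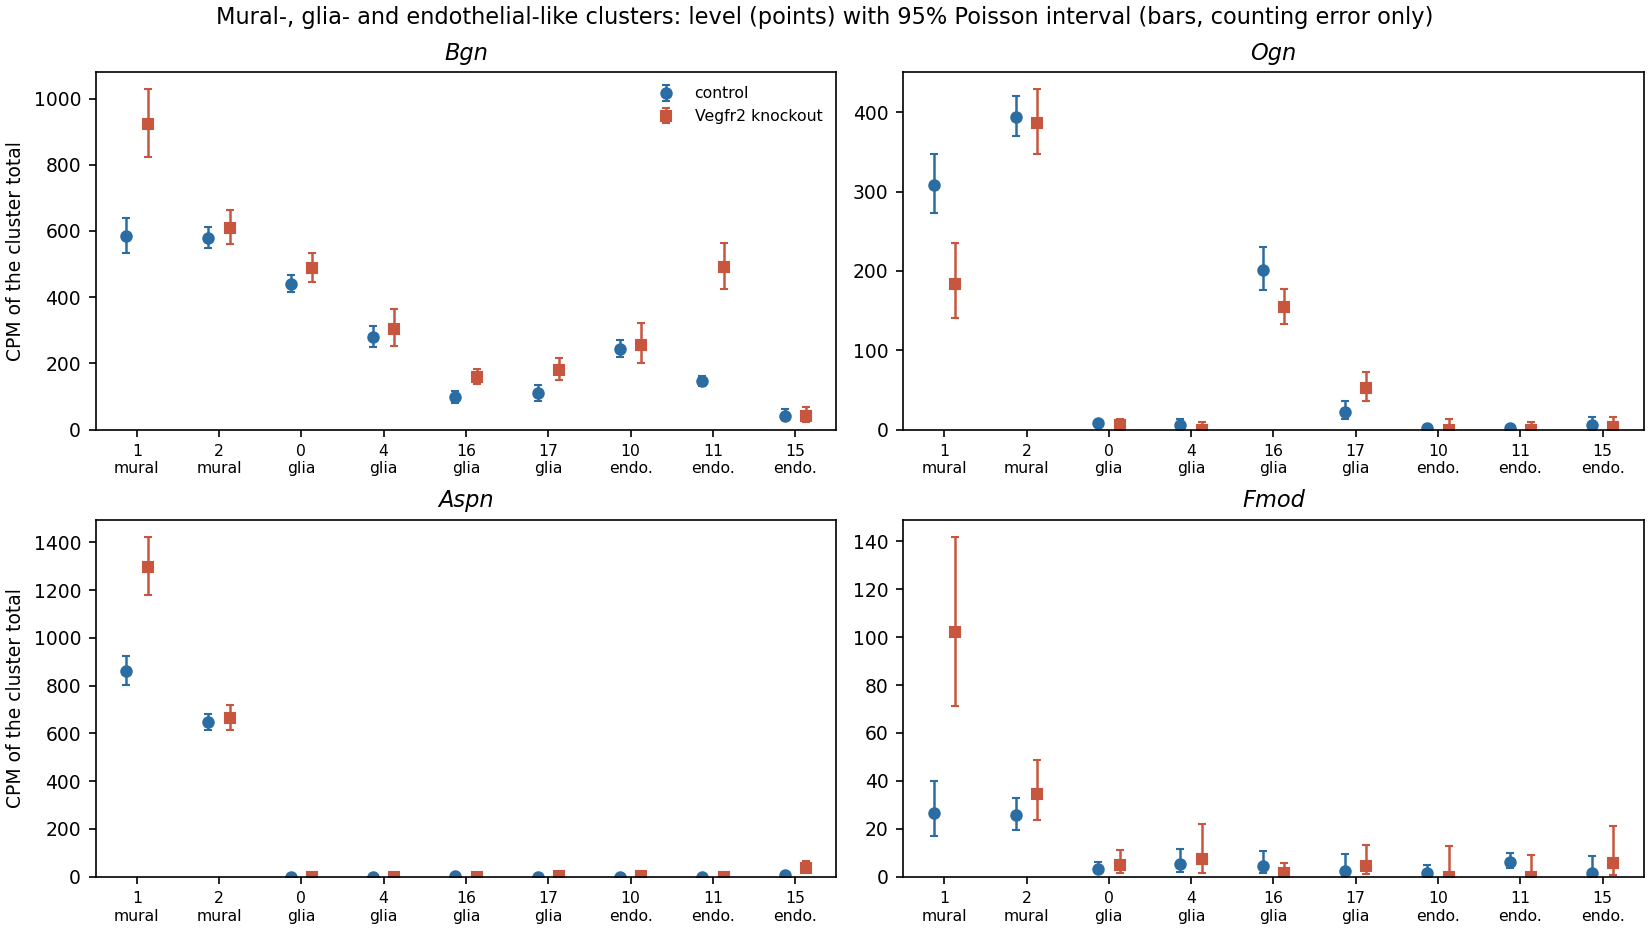
Level of Bgn, Ogn, Aspn and Fmod (CPM of the cluster's UMIs, vertical axes from 0) in 2 mural-like, 4 glia-like and 3 endothelial-like clusters (horizontal axis) of the control (circles) and Vegfr2 knockout (squares) libraries, with 95% Poisson intervals that cover counting error only. Outside mural-like cells Aspn and Fmod were low (Aspn at most 37.9 CPM, in cluster 15 of the knockout), Ogn reached 201 and 154 CPM in glia-like cluster 16, and Bgn stood at 146 and 491 CPM in endothelial-like cluster 11.

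In glia-like cells, Bgn and Ogn were the members clearly above background. Bgn was far above it in all 5 clusters, from 97.1 to 441 CPM in control, and Ogn mainly in the myelin-gene cluster 16. Bgn had 301.5 and 287 CPM over the class (0.951, 0.879 to 1.03) and was highest in cluster 0, led by Scn7a and Gfra3, at 441 and 489 CPM. Ogn was highest in the myelin-gene cluster 16, led by Mt3 and Ncmap, at 201 and 154 CPM (0.766, 0.628 to 0.934), against 7.64 and 5.84 CPM in cluster 0. Ogn over all glia-like cells was 44.5 and 66.8 CPM (1.499, 1.25 to 1.79), while cluster 16 made up 78 of 453 control and 111 of 386 knockout glia-like cells. In the other myelin-gene cluster, 17, led by Mag, Ogn was called higher at 22.1 and 52.1 CPM (2.35, 1.28 to 4.49), from 17 and 34 UMIs. Its per-cell upper quartile there was 0 in each library. Bgn was called higher in both clusters, at 97.1 and 159 CPM in cluster 16 (1.64, background 8.82% of genes) and 109 and 181 CPM in cluster 17 (1.65, background 10.5%). In the class, the 1 member called was Omd, lower at 6.34 and 2.30 CPM, against 14.1% of genes, and both values are at the level of haematopoietic-like cells.

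Endothelial-like cells, where the knockout is labelled to act, carried Bgn at the highest level of the 8 members relative to haematopoietic-like cells. The class had 161 and 278 CPM (1.73, 1.51 to 1.98). In the order of classes, control mural-like and mesenchyme-like cells had overlapping Bgn intervals, followed by glia-like and endothelial-like cells, and in knockout the glia-like and endothelial-like intervals overlapped. A Bgn UMI was present after thinning in 21.3% (control) and 33.6% (knockout) of these cells. Of the 4 members measured, 3 were called higher and 0 lower, against 14.6% of genes, but the others called, Dcn (6.82 and 14.3 CPM) and Lum (11.4 and 21.02 CPM), were at background level. Aspn had 8 and 14 UMIs and was not measured, although 13 of the 14 lay in cluster 15, at 37.9 CPM, and 1 cell held 85.7% of them. Prelp had 4.96 and 5.73 CPM (1.16) and was not called. Bgn was called higher in cluster 11, led by Vwf, Slco2a1 and Selp, which is a venous-type gene set, at 146 and 491 CPM (3.36, 2.83 to 3.99; background 13.5% of genes). Cluster 10, led by Esm1 and Adamtsl2, had 245 and 255 CPM (1.04), and cluster 15, led by Stmn2, 8430408G22Rik and Gja5, had 41.7 and 40.8 CPM (0.977). Cluster 11 held 217 control and 69 knockout cells, its knockout median depth was 4256 UMIs, and 5 cells held 36.9% of the knockout Bgn UMIs. The mural marker list also summed to 69.9 CPM in control and 298 in knockout there, and its part in the Bgn value was not tested. Omd was at 0 UMIs in 1046434 knockout endothelial UMIs, which allows up to 2.87 CPM.

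The partners of these proteoglycans were read from lists of genes in mesenchyme-like cells, whose class markers include Col1a1 and Col1a2. Each count below stands beside the 18.3% of all genes called in these cells (8.84% higher and 9.49% lower), and nothing particular to a list is read from it. All values are sums over the class, whose clusters the libraries filled unevenly. The part of cluster shares in them was not tested. Of 16 fibrillar and associated collagens, 0 were called higher and 3 lower: Col2a1, the cartilage collagen, at 43.9 and 5.74 CPM (0.131), Col14a1, a fibril-associated collagen, at 19.2 and 5.74 CPM (0.299), and Col11a1 at 196 and 105 CPM (0.536). Col14a1 stood far higher in glia-like cells, at 464 and 388 CPM, and the part of free RNA in its mesenchyme value was not tested. The main fibril genes Col1a1 (4230 and 3664 CPM, 0.866), Col1a2 (1563 and 2038 CPM, 1.30) and Col3a1 (3782 and 4271 CPM, 1.13) were not called. The median log2 ratio of the list was -0.20. Of 13 measured genes of fibril assembly, Lox, the cross-linking enzyme, was called higher (10.1 and 24.0 CPM, 2.37) and 2 were called lower, the procollagen peptidase Adamts2 (23.8 and 10.8 CPM, 0.454) and Thbs4 (55 UMIs in control and 0 in knockout, which allows up to 1.01 CPM).

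The enzymes that build the sugar chains were called at a share near that of all genes. Of 18 measured genes for the linker and chondroitin or dermatan sulfate, Csgalnact1, which starts chondroitin chains, was called higher (16.03 and 25.6 CPM, 1.60), Dsel, a dermatan sulfate epimerase, was called lower (77.0 and 41.5 CPM, 0.539), and 16 were not called. Of 9 measured genes for keratan sulfate, sulfate supply and tyrosine sulfation, the sulfate transporter Slc26a2 was called higher (34.0 and 80.0 CPM, 2.35) and the sulfotransferase Chst2 lower (41.1 and 14.8 CPM, 0.361). Median log2 ratios of these lists were 0.03 and -0.14.

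Among 9 measured proteinases and inhibitors, Adamts1 (48.5 and 118 CPM, 2.44) and the metalloproteinase inhibitor Timp3 (617 and 1372 CPM, 2.22) were called higher, and the aggrecanase Adamts5 lower (5.78 and 1.01 CPM, 0.175, from 44 and 3 UMIs). Among 18 measured receptors and ligands that bind these proteoglycans, Bmp4 (53.5 and 116 CPM, 2.17), Tlr4 (4.73 and 8.43 CPM, 1.78) and Igf1r (197 and 327 CPM, 1.66) were called higher and Kdr lower (21.5 and 11.47 CPM, 0.532). The TGF-beta ligands and receptors in that list were not called, with ratios from 1.02 to 1.38. Kdr stood far higher in endothelial-like cells, at 1089.9 and 649.8 CPM (0.596), and Adamts5 in glia-like cells, at 117 and 123 CPM. The part of free RNA from those cells in the mesenchyme values of Kdr and Adamts5 was not tested. Of the 11 other family genes listed, 4 were measured: Podnl1 was called higher, from 19 and 17 UMIs (2.30), and Ecm2 (0.864), Chadl (0.729) and Tsku (1.28) were not called.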

How the data were processed

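Single-cell RNA was counted in 2 libraries, 1 control and 1 Vegfr2 knockout. The deposited values are whole-number UMI counts per gene and barcode, made with Cell Ranger 5.0.0 for the control and 6.0.1 for the knockout per the file headers. Cell Ranger 6.0.1 and mm10 are what the submitters' processing notes list. Strand use and ambient RNA correction are not stated there, and no values other than raw counts were used.

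A barcode was kept if it had 500 or more genes, 1000 or more UMIs and no more than 10% of its UMIs from mitochondrial genes, and 33 called doublets (0.823% of those cells) were removed with Scrublet in scanpy 1.11.5. Cells of both libraries were clustered together on 2000 variable genes without the family, with 30 principal components, 15 neighbours and Leiden resolution 1. Clusters were named from marker lists. UMIs were summed per class or cluster and library, and ratios carry exact 95% conditional intervals, levels exact Poisson and shares exact Clopper-Pearson intervals, which cover counting error only. Scripts were tested on simulated data and ran on Python 3.11.15, numpy 2.4.6, scipy 1.17.1, pandas 2.3.3 and igraph 0.11.9. Where a count was 0, the limit given is 3 counts of the total.

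The members and lists were chosen with earlier results of these data known. The text names all 8 members, up to 3 genes each way per other list with at least 30 UMIs in mesenchyme-like cells, and the 3 genes most correlated with each member over clusters of at least 30 cells. Col1a1, Col1a2, Col3a1, Cenpp and the uncalled genes of short lists are named besides, after their values were seen. Alternatives covered scaling, filters, doublets, clustering, marker gates, sex-specific transcripts, thinning, cluster shares and call limits. Leaving out cluster 9 or 13 was added after seeing the data.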

Additional observations from a re-analysis of the deposited data

Results flagged for a closer look

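Ogn was called in opposite directions in different cells where it stood well above the haematopoietic level. Its knockout over control ratio was 2.35 in the myelin-gene glia-like cluster 17, from 17 and 34 UMIs and with a per-cell upper quartile of 0. It was 0.596 in mural-like cluster 1, 0.336 in mesenchyme-like cluster 6 and 0.298 in mesenchyme-like cluster 13. The difference between these clusters was not tested, since each genotype has 1 library.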

How the results depend on the processing

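Omd was called lower in mesenchyme-like cells under all 19 alternatives (ratio 0.204 to 0.438), and Ogn (0.457 to 0.849) and Dcn (1.46 to 2.09) kept their direction in all 19 and their call in 18. A 2-fold limit, counted apart from these, ended the calls of Dcn and Ogn. Aspn was called lower in 13 of 19 and higher in 1, in Y-positive cells. The ratio of Aspn turned to 1.05 with knockout clusters at control shares, 2.11 in Y-positive cells and 1.02 without cluster 13. Where 1 member was called higher in mesenchyme-like cells, 2 were under median-of-ratios scaling, with family genes among the variable genes, in Xist-positive or Y-positive cells taken alone and without cluster 9. With a mitochondrial limit of 5% or doublet calls kept the count was 3, and with knockout clusters at control shares or a 2-fold limit it was 0. Where 3 were called lower, 1 was in Y-positive cells or with a 2-fold limit, and 2 (without Aspn) with each cell weighted equally, cells thinned, knockout clusters at control shares, and without cluster 9 or 13. With marker gates or a mitochondrial limit of 5% it was 4, with Bgn. Equal weight per cell, control shares and subtraction of the haematopoietic level gave no interval, so calls under them rest on fold and UMI number alone. In mural-like cells 2 members, not 1, were called higher with the haematopoietic level subtracted (Lum added, at 1.74 against 0.671). There, 1 member and not 0 was called lower with each cell weighted equally, median-of-ratios scaling, a total without mitochondrial, ribosomal and haemoglobin genes, doublet calls kept, resolution 0.5, each library clustered on its own, family genes among the variable genes, marker gates or Y-positive cells. The cause of these changes was not tested. Another scaling moved the median of all genes by at most 0.06 on the log2 scale. No paired analysis was possible because each genotype has 1 library and no replicate numbers. Depth limits Prelp, Aspn and the values of clusters 9 and 13, where 1 library has under 30 cells.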

Other observations

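In mural-like cells, the partner genes of these proteoglycans were called in both directions, beside 7.48% of all genes called higher there and 9.66% lower. Of 13 measured fibrillar and associated collagens, 3 were called higher, Col1a1 (ratio 1.76), Col1a2 (1.70) and Col27a1 (1.54), and 2 lower, Col11a1 (0.449) and Col24a1 (0.428). Of 13 measured genes of fibril assembly, 4 were called higher and 2 lower, and of 11 measured proteinases and inhibitors 4 were called higher and 0 lower. All 12 dissociation genes were called higher in the same cells, and their part in these values was not tested.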
